A study of Saccharomyces cerevisiae with 94 samples.

Results

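The comparison of sml1Δ SSDDCS (SSDDCS below) with its control strain sml1Δ at 5 min after release from G1 arrest rested on the 4 libraries of each strain that the labels place at that time point, 8 of the 94 libraries in the series. The series used RNA-seq of total RNA from synchronised cultures of the budding yeast Saccharomyces cerevisiae to ask what earlier replication of the whole genome does to transcription in a single cell cycle, and at 5 min most of that cycle was still to come. SSDDCS carries extra copies of 6 replication initiation factors, in pairs on either side of the divergent galactose-inducible promoter PGAL1-10. Sld7 and Cdc45 sit at leu2 with the marker LEU2, SLD3-A and Dbf4-A at his3 with the marker HIS3, and Sld2 and Dpb11 at trp1 with the marker TRP1. Its SML1 gene is replaced by HphNT, whereas that of sml1Δ is replaced by URA3. SML1, an inhibitor of DNA precursor synthesis by ribonucleotide reductase, is thus absent from both strains. Both are haploid MATa cells of the W303 background and share ade2-1, can1-100 and rad5-535, beside ura3-1 and trp1-1 and the alleles leu2-3,112 and his3-11,15. The cultures grew in rich raffinose medium, were arrested with the mating pheromone alpha factor, received galactose during the arrest, and were released into rich galactose medium. Each genotype was represented by a single strain, and by the labels the strains differ in the markers URA3, LEU2, HIS3 and TRP1 as well as in the 6 factors, so effects of the markers and of the factors cannot be told apart.

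The 8 libraries held between 8119387 and 21592736 reads in genes, with means of 11229691 in SSDDCS and 12391810 in sml1Δ (exact two-sided permutation test, p = 0.8, where the smallest possible p is 0.0286). Replicate 1 of sml1Δ was the deepest library and also the one that stood farthest from its group, with an SD of 0.308 for its deviations from the group mean on the log2 scale over 6414 genes, against 0.197 to 0.262 in the other 7 libraries. Results that turn on it are given below with and without that culture. The MATa label was checked on genes of the 2 mating types. MFA1, which encodes the pheromone of a cells, ranged from 4653 to 9538 in SSDDCS and from 5686 to 10833 in sml1Δ, while MF(ALPHA)1, the pheromone gene of alpha cells, ranged from 31.9 to 70.0 in SSDDCS and from 38.5 to 155 in sml1Δ. None of 7 a-specific and 4 alpha-specific genes differed between the strains. Values here and below are normalised read counts, which are reads per gene divided by the size factor of the library, and the 4 values of a strain follow replicates 1 to 4.

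Yeast cells that leave the pheromone arrest re-enter the cell cycle at Start and switch on the genes of the G1/S transition, CDC45 and SLD2 among them, before origins fire. Independently of the cycle, the cell adjusts its metabolic genes to the supply of nitrogen and amino acids through dedicated transcription factors. GATA factors such as Gln3 and Gat1 activate permeases and enzymes for poor nitrogen sources through GATAAG elements, and these genes are shut off when a good source is present, which is called nitrogen catabolite repression. Gcn4 activates amino acid synthesis through TGACTC elements in the general amino acid control. Leu3 binds elements made of CCG and CGG with any 4 bases between them, called Leu3 elements below, and activates the leucine pathway when its intermediate isopropylmalate accumulates.

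Because most of the genes lower in SSDDCS at 5 min belonged to these metabolic groups, the 300 bases before the start codon were read from the R64 reference (strain S288C, RefSeq, not the W303 sequence) for 6 of them. They are shown to place the matches to the 3 elements beside the values that follow, and capitals mark each match to any of the 3 on either strand. Each of the 6 windows holds a match, but not every lower gene has one: the windows of DUR12, QDR2, OAC1, ARG3 and MEP1 hold none.
MEP2, chrXIV:357153-357452, plus strand: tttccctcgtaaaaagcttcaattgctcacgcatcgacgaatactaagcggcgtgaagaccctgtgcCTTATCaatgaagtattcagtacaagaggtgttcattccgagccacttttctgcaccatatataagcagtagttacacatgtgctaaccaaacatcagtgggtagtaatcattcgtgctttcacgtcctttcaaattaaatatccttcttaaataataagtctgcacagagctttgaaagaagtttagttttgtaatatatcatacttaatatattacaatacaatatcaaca
GAP1, chrXI:514763-515062, plus strand: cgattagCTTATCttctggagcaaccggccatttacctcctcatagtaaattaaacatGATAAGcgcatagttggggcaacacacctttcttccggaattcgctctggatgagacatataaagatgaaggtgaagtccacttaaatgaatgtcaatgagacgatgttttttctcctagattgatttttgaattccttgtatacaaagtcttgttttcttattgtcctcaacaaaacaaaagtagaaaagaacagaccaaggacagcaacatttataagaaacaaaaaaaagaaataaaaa
LEU1, chrVII:478653-478952, minus strand: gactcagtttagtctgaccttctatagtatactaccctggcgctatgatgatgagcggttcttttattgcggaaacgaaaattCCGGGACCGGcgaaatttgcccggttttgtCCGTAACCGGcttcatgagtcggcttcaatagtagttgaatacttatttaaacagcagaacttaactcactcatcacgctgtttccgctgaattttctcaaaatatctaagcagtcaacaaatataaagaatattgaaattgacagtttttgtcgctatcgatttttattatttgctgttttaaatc
BAT1, chrVIII:517232-517531, plus strand: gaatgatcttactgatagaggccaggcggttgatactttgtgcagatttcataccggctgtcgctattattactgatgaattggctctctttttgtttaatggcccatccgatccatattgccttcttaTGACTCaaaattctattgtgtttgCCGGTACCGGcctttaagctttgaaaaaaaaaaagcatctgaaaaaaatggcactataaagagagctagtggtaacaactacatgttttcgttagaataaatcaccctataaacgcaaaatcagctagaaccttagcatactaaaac
HIS4, chrIII:68334-68633, minus strand: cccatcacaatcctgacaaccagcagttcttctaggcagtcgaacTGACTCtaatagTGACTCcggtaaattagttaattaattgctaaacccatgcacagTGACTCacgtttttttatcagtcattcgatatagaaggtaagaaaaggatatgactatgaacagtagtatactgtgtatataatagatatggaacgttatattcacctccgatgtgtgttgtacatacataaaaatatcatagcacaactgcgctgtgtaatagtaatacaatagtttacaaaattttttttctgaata
PAN5, chrVIII:225170-225469, minus strand: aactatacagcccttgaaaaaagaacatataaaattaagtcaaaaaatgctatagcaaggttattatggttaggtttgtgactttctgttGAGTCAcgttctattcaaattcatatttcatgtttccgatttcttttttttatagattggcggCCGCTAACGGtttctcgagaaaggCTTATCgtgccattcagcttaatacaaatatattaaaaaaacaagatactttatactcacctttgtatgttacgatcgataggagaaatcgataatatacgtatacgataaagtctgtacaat
The matches in the MEP2 and GAP1 windows are to GATAAG, those of LEU1 to the Leu3 element and those of HIS4 to TGACTC, while BAT1 holds 1 TGACTC and 1 Leu3 element and PAN5 holds 1 match to each of the 3. In MEP2 the GATAAG match begins 233 bases before the start codon, and GAP1 has 2 matches, at 293 and 242 bases. The 3 TGACTC matches of HIS4 begin 255, 243 and 199 bases before the start codon, and the 2 Leu3 element matches of LEU1 begin 217 and 187 bases before it. Among 5808 such windows across the genome, 14.5% held at least 1 GATAAG, 7.82% at least 1 TGACTC and 1.62% at least 1 Leu3 element, counted on both strands. These matches describe the sequence only, and binding was not measured here.

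The strain labels were checked on the 6 over-expressed factors. At 5 min each of them was higher in all SSDDCS libraries than in any sml1Δ library, and they were called in every alternative tried. Sld2 and Sld3 are the substrates through which cyclin-dependent kinase triggers initiation, and both bind Dpb11 when phosphorylated. SLD2 (YKL108W, chromosome XI, 234426 to 235787, plus strand) had 6803, 7504, 7337 and 7059 in SSDDCS, against 1202, 1134, 962 and 1114 in sml1Δ (log2 difference 2.70, SE 0.17, limma adjusted p 3.43e-23). SLD3 (YGL113W, chromosome VII, 295932 to 297938, plus strand) had 3392, 3626, 4021 and 3587 in SSDDCS, against 474, 499, 383 and 509.7 in sml1Δ (log2 difference 2.97, SE 0.13, limma adjusted p 3.82e-32). For DPB11 (YJL090C, chromosome X, 262757 to 265051, minus strand), which bridges the factors and the polymerase, the values were 16283, 16009, 13073 and 11546 in SSDDCS, against 615, 665, 569.6 and 632 in sml1Δ (log2 difference 4.50, SE 0.09, limma adjusted p 7.7e-56). It had the largest difference of the 6, 22.7-fold.

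DBF4 (YDR052C, chromosome IV, 558511 to 560625, minus strand) encodes the subunit that activates the kinase Cdc7, and had 12672, 12148, 10652 and 9912 in SSDDCS, against 1832, 1889.7, 1676 and 1709.6 in sml1Δ (log2 difference 2.67, SE 0.07, limma adjusted p 1.09e-47). CDC45 (YLR103C, chromosome XII, 343989 to 345941, minus strand) encodes a subunit of the active helicase. Its values were 10456, 9638, 5453 and 8306 in SSDDCS, against 1819, 1627, 1396 and 1469 in sml1Δ, and SSDDCS replicate 3 was the lowest of its strain (log2 difference 2.39, SE 0.27, limma adjusted p 1.19e-10). SLD7 (YOR060C, chromosome XV, 440390 to 441163, minus strand), the partner of Sld3, had 2210.1, 2278, 1562 and 2604 in SSDDCS, against 182, 195, 191 and 197 in sml1Δ (log2 difference 3.47, SE 0.20, limma adjusted p 8.39e-25). Here too SSDDCS replicate 3 was the lowest of its strain. SLD7 and CDC45 share 1 construct.

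**Figure D1:**
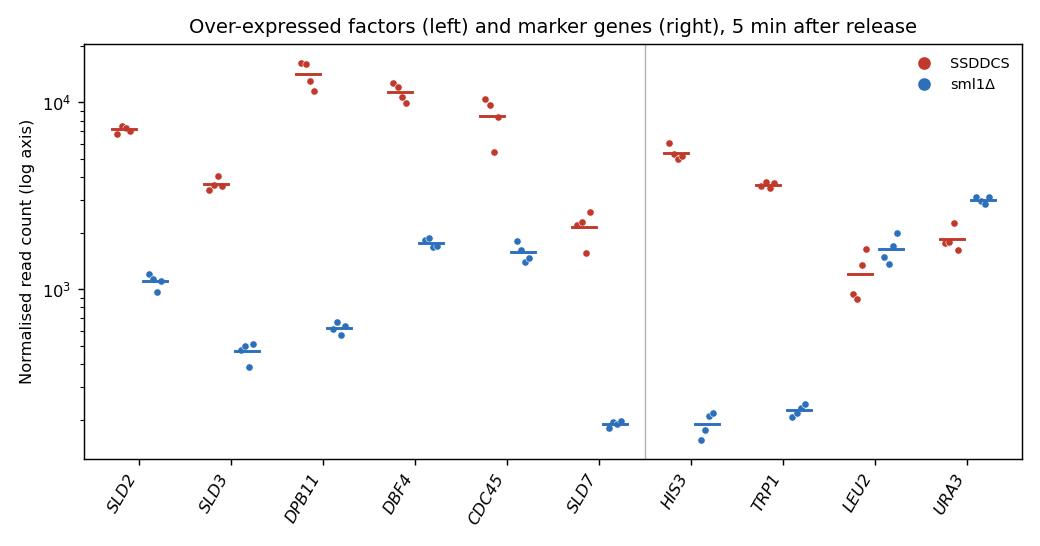
Normalised read counts (log axis) of the 6 over-expressed factors and the 4 marker genes at 5 min, with one point per library and a bar at the mean of 4 libraries, SSDDCS in red and sml1Δ in blue. The factors, HIS3 and TRP1 are separated between the strains, LEU2 overlaps, and URA3 is lower in all 4 SSDDCS libraries.

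At 5 min the excess of several factors was smaller than in the arrest. The log2 difference of CDC45 was 5.92 in G1 and 2.39 at 5 min, a change of −3.54 (limma test of the change, adjusted p 5.02e-11). In SSDDCS, CDC45 averaged 12602 ± 3908 in G1 and 8463 ± 2194 at 5 min, whereas in sml1Δ it averaged 200.2 ± 32.4 in G1 and 1578 ± 187 at 5 min (SD, n = 4 each). On the log2 scale most of this change lay in sml1Δ, where CDC45 was higher after release than in the arrest. SLD2, which is also a gene of the G1/S transition, behaved alike, with 9966 ± 1058 in G1 and 7176 ± 309 at 5 min in SSDDCS, and with 209 ± 30.4 in G1 and 1103 ± 101 at 5 min in sml1Δ, as SD over 4 libraries. Its difference changed by −2.87 (limma adjusted p 4.33e-16). The differences of DBF4 and DPB11 changed by −1.86 and −1.53 (limma adjusted p 1.42e-26 and 3e-16). For SLD3 the change was −0.85 (limma adjusted p 0.0122, and 0.000385 with a correlation between libraries of one culture) and for SLD7 −0.49 (limma adjusted p 0.999). For DPB11 and SLD3 the larger part of the change on the log2 scale lay in SSDDCS. From G1 to 5 min the mean of DPB11 went from 26619 to 14228 in SSDDCS and from 407 to 620 in sml1Δ. That of SLD3 went from 5388 to 3656 in SSDDCS and from 378 to 467 in sml1Δ. The differences of CDC45, SLD2, DPB11 and DBF4 at 5 min were the smallest of their 12 time points.

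Of the marker genes, HIS3 (YOR202W, chromosome XV, 721946 to 722608, plus strand), which encodes an enzyme of histidine synthesis, had 6089.6, 5321, 5008 and 5136 in SSDDCS, against 156, 177, 209 and 218 in sml1Δ (log2 difference 4.83, SE 0.11, limma adjusted p 5.91e-50). TRP1 (YDR007W, chromosome IV, 461842 to 462516, plus strand), an enzyme of tryptophan synthesis, had 3580.2, 3729, 3493 and 3697 in SSDDCS, against 208, 219, 231 and 243 in sml1Δ (log2 difference 4.0, SE 0.07, limma adjusted p 2.31e-59). Both were separated between the strains, and each strain's 4 libraries lay close together. URA3 (YEL021W, chromosome V, 116167 to 116970, plus strand), the marker that replaces SML1 in the control, was lower in SSDDCS, with 1772, 1783, 2250.3 and 1622 in SSDDCS, against 3118, 2949, 2843 and 3131 in sml1Δ (log2 difference −0.71, SE 0.13, limma adjusted p 0.000212). LEU2 (YCL018W, chromosome III, 91324 to 92418, plus strand), an enzyme of leucine synthesis, overlapped between the strains, with 944, 888, 1342 and 1636 in SSDDCS, against 1494, 1366, 1709 and 2003 in sml1Δ (log2 difference −0.48, SE 0.34, limma adjusted p 0.833). Although SSDDCS is labelled as carrying a LEU2 marker, its LEU2 level was below that of sml1Δ at all 12 time points, by up to 2.36 on the log2 scale, and was called lower at 8 of them, or 11 with the block. The host alleles of these markers keep coding sequence, so reads from host and marker copies add up here.

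Beyond the 6 factors and the 4 markers, 18 of 6404 genes (0.281%) were called at 5 min, that is, they passed a limma adjusted p of 0.01, and 12 were lower (0.187%) and 6 higher (0.0937%) in SSDDCS. The replicate numbers come from the sample titles. That equal numbers pair the cultures was inferred from these data, as no label says what a number shares. With the replicate number as a block in the model 44 genes (0.687%) were called, 30 lower (0.468%) and 14 higher (0.219%), including all 18. Without adjustment, 499 genes (7.79%) had a p under 0.05. The median log2 difference was 0.00 over the 6404 genes, but the scaling by size factors sets it near 0. It therefore cannot show whether most genes shifted together. In all, 23 genes differed by 2-fold or more, of which 9 were called. In 241 genes (3.76%) the 4 libraries of one strain did not overlap the 4 of the other, 115 higher (1.8%) and 126 lower (1.97%) in SSDDCS, and 15 of the 18 called genes were among them. The 3 that overlapped were HIS4, ODC2 and HOM2. The calls rested on the spread shared by all 94 libraries: a fit to the 8 libraries alone called 4 genes, the 3 unplaced reading frames described next and GWT1, and with the block also MEP2. Single cultures moved the count as well. It was 8, 9 and 30 without SSDDCS replicates 1, 2 and 3, and 47, 10 and 10 without sml1Δ replicates 1, 3 and 4, while 8 of the 18 genes were called in all 8 such fits. With the block the count was 25, 19 and 121 without SSDDCS replicates 1, 2 and 4, and 81, 69 and 26 without sml1Δ replicates 1, 3 and 4.

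**Figure D2:**
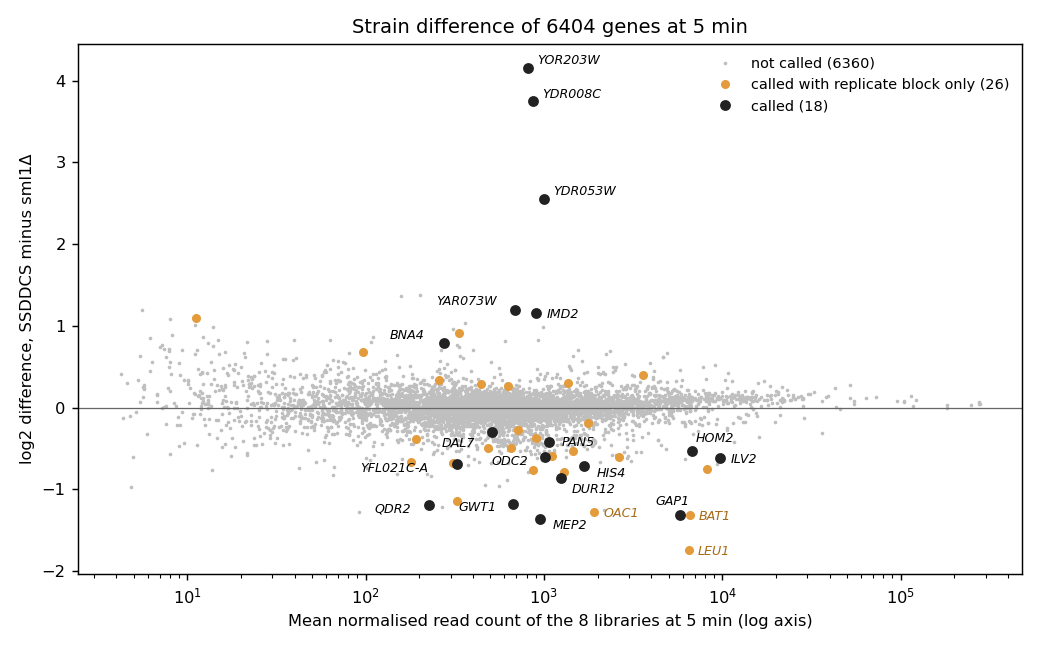
Log2 difference (SSDDCS minus sml1Δ) of each of 6404 genes at 5 min against its mean normalised read count over the 8 libraries (log axis), with called genes in black and genes called with the replicate block only in orange. Most genes lie near 0, the 3 largest differences are unplaced reading frames beside construct genes, and the other large calls are mostly lower in SSDDCS.

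The largest differences belonged to 3 reading frames whose systematic names adjoin construct genes. YOR203W, next in number to HIS3 (YOR202W), had 1646, 1632, 1520.0 and 1381 in SSDDCS, against 84.6, 76.7, 78.8 and 105 in sml1Δ (log2 difference 4.15, SE 0.13, limma adjusted p 2.5e-42). YDR008C, next to TRP1 (YDR007W), had 1605, 1615, 1607 and 1637 in SSDDCS, against 114, 104, 134 and 127 in sml1Δ (log2 difference 3.75, SE 0.09, limma adjusted p 5.26e-50). YDR053W, next to DBF4 (YDR052C), had 1973, 1790.0, 1579 and 1541 in SSDDCS, against 307, 323, 245 and 292 in sml1Δ (log2 difference 2.56, SE 0.11, limma adjusted p 2.61e-32). None of the 3 is placed in the annotation used here, and the counting is not stated to use strand, so their reads cannot be told apart from those of the neighbouring gene. The difference of YDR053W changed by −1.94 between G1 and 5 min (limma adjusted p 3e-16), against −1.86 for DBF4.

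GWT1 (YJL091C, chromosome X, 261080 to 262552, minus strand) encodes an acyltransferase of GPI anchor synthesis and lies beside the native DPB11 gene (262757 to 265051 on the same strand). It had 396, 318, 438 and 491 in SSDDCS, against 919, 918, 926 and 926 in sml1Δ (log2 difference −1.18, SE 0.12, limma adjusted p 1.38e-12). The 4 control libraries were nearly identical and all SSDDCS libraries were below them, a 2.27-fold decrease. GWT1 was called lower at all 12 time points and in every alternative at 5 min. Tested were 48 genes within 2 systematic numbers of the native loci of the factors, the markers and SML1. Of these, 3 were called higher and 1 lower, against 0.0937% and 0.187% of all genes. With the block 4 were called higher and 3 lower, against 0.219% and 0.468% of all genes. The additional ones were HUG1, YOR062C and, near DPB11, ARG3, which is described below with its pathway. HUG1 (YML058W-A, the neighbour of SML1), which encodes an inhibitor of ribonucleotide reductase, was barely detected at 14.9, 21.7, 6.6 and 18.5 in SSDDCS, against 2.17, 6.05, 9.68 and 9.69 in sml1Δ (log2 difference 1.10, limma adjusted p 0.167, and 0.00625 with the block). YOR062C, near SLD7, had 198, 183, 279 and 292 in SSDDCS, against 305, 387, 365 and 459 in sml1Δ (log2 difference −0.68, limma adjusted p 0.21, and 0.00946 with the block).

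**Figure D3:**
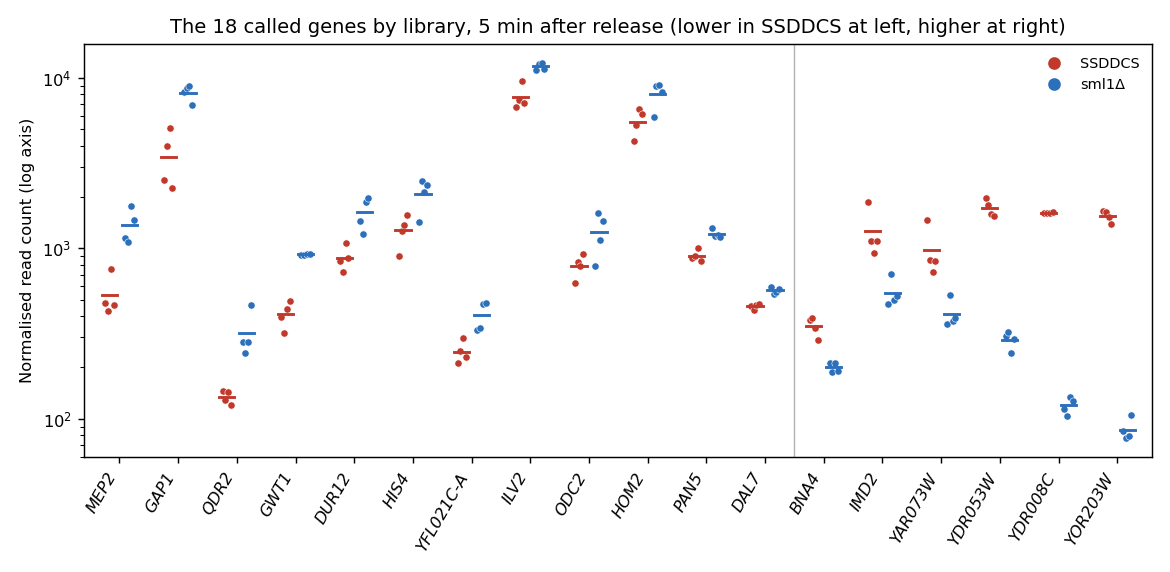
Normalised read counts (log axis) of the 18 called genes at 5 min, one point per library and a bar at the mean of 4, SSDDCS in red and sml1Δ in blue, ordered by log2 difference. In 15 of the 18 genes the strains do not overlap, and HIS4, ODC2 and HOM2 are the 3 that do.

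Of the 12 lower genes, 4 serve the use of nitrogen sources, namely MEP2, GAP1, DUR12 and DAL7. MEP2 (YNL142W, chromosome XIV, 357453 to 358952, plus strand), a high-affinity ammonium permease, had 479.7, 428, 759 and 462 in SSDDCS, against 1147, 1091, 1768 and 1457 in sml1Δ. All SSDDCS libraries were below all control libraries, and replicate 3 was the highest in both strains. MEP2 was 2.58-fold lower in SSDDCS (log2 difference −1.37, SE 0.09, limma adjusted p 1.39e-20). Leaving out single cultures kept its difference between −1.55 and −1.24 with adjusted p up to 3.84e-15, while the 8 libraries alone gave an adjusted p of 0.042 (limma).

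The mean levels of MEP2 at the neighbouring time points were below those at 5 min in both strains. In SSDDCS it averaged 394 ± 10.8 in G1, 532 ± 153 at 5 min and 428 ± 30.7 at 10 min. In sml1Δ it averaged 468 ± 30.3 in G1, 1366 ± 313 at 5 min and 522 ± 21.8 at 10 min (SD, n = 4 each). The control values of 5 min were thus met neither in G1 nor at 10 min. The log2 difference was −0.25 in G1 (limma adjusted p 0.333), −1.37 at 5 min and −0.29 at 10 min (limma adjusted p 0.189), and MEP2 was called at no other of the 12 time points. Its change from G1 to 5 min was −1.12 (limma adjusted p 2.16e-09). Beyond the factors and markers, only MEP2 and YDR053W passed that test, 2 of 6404 genes (0.0312%), or 4 without SSDDCS replicate 3 and 6 with a correlation between libraries of one culture, and from the G1 and 5 min libraries alone MEP2 had an adjusted p of 0.201 (limma).

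GAP1 (YKR039W, chromosome XI, 515063 to 516871, plus strand), the general amino acid permease, had 2512, 3958, 5071 and 2262 in SSDDCS, against 8293, 8691, 8913 and 6894 in sml1Δ. The strains did not overlap, and GAP1 was 2.5-fold lower in SSDDCS (log2 difference −1.32, SE 0.27, limma adjusted p 0.00149). Unlike MEP2, it differed by a like amount in G1, where it averaged 966 ± 436 (SD, n = 4) in SSDDCS and 2139.7 ± 793 (SD, n = 4) in sml1Δ (log2 difference −1.17, limma adjusted p 0.0058). In both strains its level at 5 min was above that in G1 and at 10 min, when it averaged 1228 ± 408 in SSDDCS and 2597 ± 442 in sml1Δ. By 15 min the difference was −0.11 (limma adjusted p 0.886). The 5 min call was lost without SSDDCS replicate 1, SSDDCS replicate 4 or sml1Δ replicate 3, with adjusted p up to 0.0354 (limma) and differences between −1.53 and −1.14.

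DUR12 (YBR208C, chromosome II, 636703 to 642210, minus strand), which encodes urea amidolyase, had 839, 724, 1076 and 880.3 in SSDDCS, against 1437, 1209, 1875 and 1966 in sml1Δ. It was 1.83-fold lower in SSDDCS with no overlap (log2 difference −0.87, SE 0.13, limma adjusted p 1.02e-06), was called in all 8 fits without a culture, and was called at no other time point. Its change from G1 had a limma adjusted p of 0.295, and of 0.00537 with a correlation between libraries of one culture. DAL7 (YIR031C, chromosome IX, 413015 to 414679, minus strand), a malate synthase of allantoin breakdown, differed least of the called genes, with 460.4, 435, 467 and 469.5 in SSDDCS, against 594, 539, 556 and 575 in sml1Δ (log2 difference −0.30, SE 0.06, limma adjusted p 0.00147). Its libraries lay close together within each strain, and the call was lost without SSDDCS replicate 1, SSDDCS replicate 2 or sml1Δ replicate 1, with adjusted p up to 0.0216 (limma), and with quantile normalization (limma adjusted p 0.05).

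A list of 26 genes under nitrogen catabolite repression was drawn up after these values were seen and is a description only. In it 4 genes fell, against 0.187% of all genes, none rose and 22 did not pass the test. With the block 9 fell, against 0.468% of all genes. The additional 5 were MEP1, GAT1, DAL3, CAN1 and OPT2. MEP1, a second ammonium permease, had 559.9, 504, 531 and 548 in SSDDCS, against 703, 655, 769 and 926 in sml1Δ (log2 difference −0.50, limma adjusted p 0.0103, and 0.000277 with the block), again with no overlap, and was called without sml1Δ replicate 1. GAT1, the GATA activator itself, had 717, 851, 1107 and 859 in SSDDCS, against 1128, 1154, 1493 and 1524 in sml1Δ (log2 difference −0.59, limma adjusted p 0.044, and 0.00549 with the block) and was called without SSDDCS replicate 3. YFL021C-A, an unplaced reading frame whose name adjoins that of GAT1 (YFL021W), was called, with 213, 249, 298 and 230.4 in SSDDCS, against 329.7, 339, 471 and 481 in sml1Δ (log2 difference −0.70, SE 0.15, limma adjusted p 0.00261), and its reads cannot be told apart from those of GAT1. That call was lost without any one of SSDDCS replicates 1, 2 and 4 and sml1Δ replicates 3 and 4, with adjusted p up to 0.0566 (limma). The other 3 were DAL3 of allantoin breakdown (log2 difference −0.66, limma adjusted p 0.0269, and 0.00111 with the block), the arginine permease CAN1, which both strains carry as can1-100 (log2 difference −0.37, limma adjusted p 0.26, and 0.000963 with the block) and the oligopeptide transporter OPT2 (log2 difference −0.79, limma adjusted p 0.16, and 0.000209 with the block). The median log2 difference of the list was −0.23 at 5 min, against 0.00 for all genes, and −0.05 in G1 and 0.24 at 30 min. The list was not uniform: the proline permease PUT4, the glutamate dehydrogenase GDH2 and the ammonium permease MEP3 lay at −0.04, 0.14 and −0.09 and did not pass the test.

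**Figure D4:**
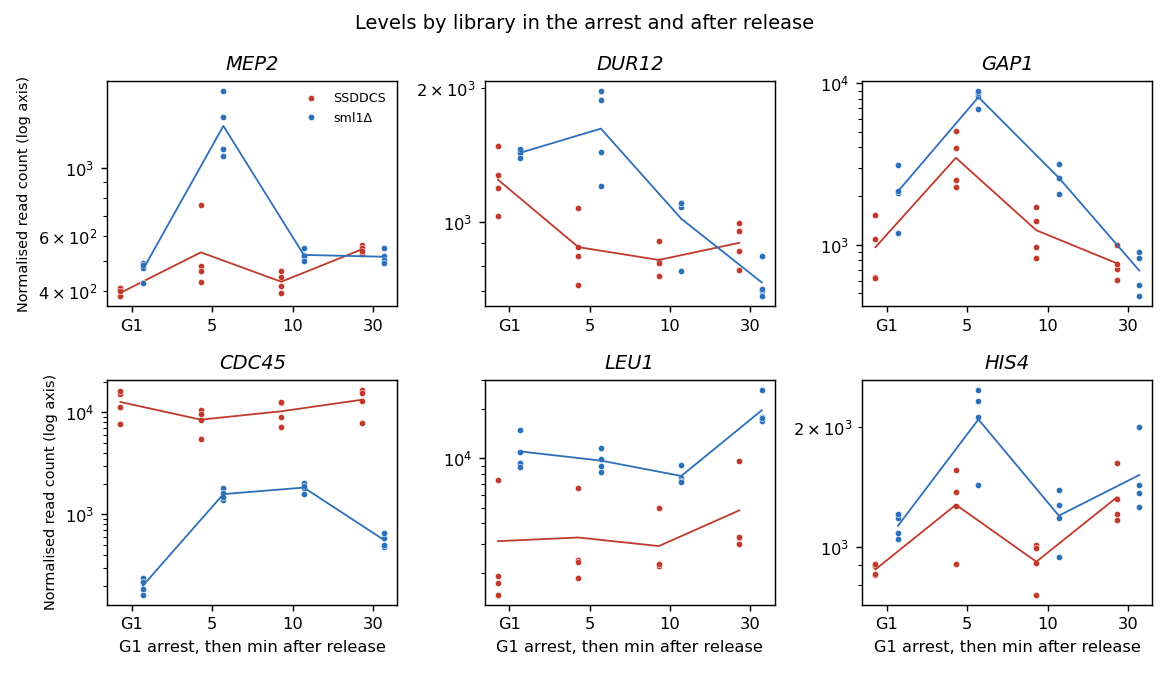
Normalised read counts (log axes) of MEP2, DUR12, GAP1, CDC45, LEU1 and HIS4 in G1 and at 5, 10 and 30 min after release, one point per library and lines through the means of 4, SSDDCS in red and sml1Δ in blue. The strain means of MEP2 lie farthest apart at 5 min, GAP1 is above its G1 level at 5 min in both strains, and one SSDDCS culture, replicate 3, is high for LEU1 at each time shown.

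Genes of leucine and branched-chain amino acid synthesis formed the next group. Of 12 tested, 11 had a negative difference, and 1, ILV2, fell by the test, against 0.187% of all genes. With the block 4 fell, against 0.468% of all genes. With a correlation between libraries of one culture 5 fell, where 17 genes were called lower in all. None rose in either. In 7 of the 12 the strains did not overlap and SSDDCS was lower, against the 1.97% of all genes. ILV2 (YMR108W, chromosome XIII, 484084 to 486147, plus strand), the acetolactate synthase of the shared first step, had 6752, 7429, 9563 and 7087 in SSDDCS, against 11129, 12026, 12250.2 and 11296 in sml1Δ (log2 difference −0.61, SE 0.13, limma adjusted p 0.00422). The strains did not overlap, and the call was lost without any one of SSDDCS replicates 1, 2 and 4 and sml1Δ replicates 2, 3 and 4, with adjusted p up to 0.111 (limma). LEU1 (YGL009C, chromosome VII, 476313 to 478652, minus strand), the isopropylmalate isomerase, had 2394, 1856, 6558 and 2329 in SSDDCS, against 11577, 8979.5, 9930.2 and 8267 in sml1Δ (log2 difference −1.74, limma adjusted p 0.0478, and 0.00137 with the block). SSDDCS replicate 3 stood well above the other SSDDCS libraries and still below the control, and without it LEU1 was called, with a difference of −2.14 (limma adjusted p 1.95e-16).

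BAT1 (YHR208W, chromosome VIII, 517532 to 518713, plus strand), the mitochondrial branched-chain aminotransferase, had 2936, 2676, 6619 and 3651 in SSDDCS, against 8640.1, 8817, 10304 and 9136 in sml1Δ (log2 difference −1.31, limma adjusted p 0.0198, and 0.000528 with the block). OAC1 (YKL120W, chromosome XI, 217344 to 218318, plus strand), a mitochondrial carrier of oxaloacetate and isopropylmalate, had 783, 797, 2200.2 and 1004 in SSDDCS, against 2764, 2234, 2879 and 2692 in sml1Δ (log2 difference −1.28, limma adjusted p 0.163, and 0.00363 with the block). In both genes SSDDCS replicate 3 was again the highest of its strain, and without it both were called (−1.59 and −1.62, limma adjusted p 7.6e-17 and 6.59e-16). Without SSDDCS replicate 3, 5 genes of the list fell, the additional one being ILV3, the dihydroxyacid dehydratase (−0.81, limma adjusted p 0.00804). In that fit 23 genes were called lower in all. LEU4, the first enzyme of the leucine branch, lay at −0.42 (limma adjusted p 0.197), while the regulator gene LEU3 lay at −0.01 and BAT2, the cytosolic aminotransferase, at 0.35. The differences did not begin at 5 min: in G1 they were −2.14 for LEU1, −1.77 for BAT1, −2.26 for OAC1 and −0.71 for ILV2, all called (limma adjusted p 0.00257, 0.000118, 6.17e-05 and 0.000262).

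GDH1, the NADP-dependent glutamate dehydrogenase, likewise had its highest SSDDCS value in replicate 3, with 5674, 4612, 8629 and 5817 in SSDDCS, against 10629, 8865, 10356 and 10722 in sml1Δ (log2 difference −0.75, limma adjusted p 0.0624, and 0.00389 with the block). The marker LEU2 belongs to this pathway and was described above. The labels put a LEU2 marker in SSDDCS alone, which the LEU2 values do not show as a higher level, and for this group the factors and the marker locus cannot be told apart. In the windows before the start codon, the Leu3 element occurred in 7 of the 29 genes lower with the block (LEU1, BAT1, HOM2, PAN5, GAT1, PCL7 and DRE2), in none of the 9 placed genes higher with the block, and in 1.62% of all windows. ILV2 and OAC1 held no Leu3 element.

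Among 28 genes of the general amino acid control, 26 had a negative difference. By the test 2 fell (HIS4 and HOM2), against 0.187% of all genes, and none rose. The median log2 difference was −0.25 at 5 min, −0.06 in G1 and −0.05 at 30 min. None of the 28 genes passed the test of the change from G1. HIS4 lay at −0.36 in G1 and −0.18 at 30 min, and HOM2 at −0.44 and −0.49. HOM2 was called lower at 8 of the 12 time points, and at all 12 with the block. HIS4 (YCL030C, chromosome III, 65934 to 68333, minus strand), a histidine synthesis enzyme, had 902, 1268, 1372 and 1561 in SSDDCS, against 1431, 2486, 2125 and 2336 in sml1Δ (log2 difference −0.71, SE 0.14, limma adjusted p 0.00153). HOM2 (YDR158W, chromosome IV, 770357 to 771454, plus strand), which makes aspartate semialdehyde for threonine and methionine, had 4234, 5252, 6545 and 6111 in SSDDCS, against 5927, 8897, 9023 and 8199 in sml1Δ (log2 difference −0.53, SE 0.12, limma adjusted p 0.00551). In both genes replicate 1 was the lowest of each strain, so that the strains overlapped although each of the 4 pairs of cultures was lower in SSDDCS. Each call was lost without any one of SSDDCS replicates 1 and 2 and sml1Δ replicates 2, 3 and 4, with adjusted p up to 0.107 for HIS4 and 0.134 for HOM2 (limma). HIS4 also lost its call with a correlation between libraries of one culture (limma adjusted p 0.0124).

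The low replicate 1 was more marked in arginine synthesis. ARG1, argininosuccinate synthetase, had 424, 1008, 1544 and 1868 in SSDDCS, against 683, 4654, 3881 and 3229 in sml1Δ (log2 difference −1.25, limma adjusted p 0.127, and 0.0142 with the block). ARG3, ornithine carbamoyltransferase, had 78.0, 189, 255 and 199 in SSDDCS, against 92.2, 749.6, 556 and 472 in sml1Δ (log2 difference −1.15, limma adjusted p 0.277, and 0.00967 with the block). In both, sml1Δ replicate 1 was far below the other control libraries. Without that culture ARG1 differed by −1.88, ARG3 by −1.81 and ARG4, argininosuccinate lyase, by −0.98 (limma adjusted p 3.23e-06, 0.00285 and 0.0085). In that fit 7 of the 28 genes fell, where 37 genes were called lower in all. GCN4, whose protein drives this control and is set mostly by translation, lay at 0.09 (limma adjusted p 0.904). In the synthesis of tryptophan and histidine, which TRP1 and HIS3 serve, 1 of 10 other genes fell, HIS4, against 0.187% of all genes. Without sml1Δ replicate 1 the number was 3, where 37 genes were called lower in all. The median over all cultures was −0.19.

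ODC2 (YOR222W, chromosome XV, 758330 to 759253, plus strand), a mitochondrial carrier of oxodicarboxylates, likewise had its lowest value of each strain in replicate 1, with 629.8, 826, 783 and 924 in SSDDCS, against 782, 1609, 1121 and 1450.5 in sml1Δ (log2 difference −0.61, SE 0.13, limma adjusted p 0.00182). Its call was lost without any one of SSDDCS replicates 1, 2 and 3 and sml1Δ replicates 2, 3 and 4, with adjusted p up to 0.101 (limma). ODC2 was also lower at 10 and 15 min (−0.57 and −0.52, limma adjusted p 0.00532 and 0.00364). TGACTC occurred in the windows of 5 of the 29 genes lower with the block (HIS4, HOM2, PAN5, BAT1 and ODC2) and in that of the higher gene BNA4, and in 7.82% of all windows. GATAAG occurred in 10 of the 29 (MEP2, GAP1, DAL7, DAL3, GAT1, CAN1, ILV2, PAN5, GWT1 and PHO13), in none of the 9 placed higher genes, and in 14.5% of all windows. The windows were not cut at neighbouring genes, and that of GWT1 (262553 to 262852) runs into DPB11. DAL3 held 5 matches, GAT1 4, and CAN1 and DAL7 3 each, while DUR12, MEP1 and OPT2 held none. The elements were searched for because of the genes that were lower, so these counts are a description.

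The remaining lower genes were a transporter and a vitamin enzyme. QDR2 (YIL121W, chromosome IX, 132244 to 133872, plus strand), a plasma membrane multidrug transporter, had 146, 129, 143 and 121 in SSDDCS, against 283, 244, 282 and 467 in sml1Δ (log2 difference −1.20, SE 0.20, limma adjusted p 2.34e-05). All 4 SSDDCS libraries lay together and below the control, where replicate 4 was highest. It was called in all 8 fits without a culture, and its difference in G1 was −1.31 (limma adjusted p 2.57e-06). PAN5 (YHR063C, chromosome VIII, 224030 to 225169, minus strand), the ketopantoate reductase of pantothenate synthesis, had 879, 902, 1009 and 838 in SSDDCS, against 1324, 1182, 1193 and 1171 in sml1Δ (log2 difference −0.43, SE 0.07, limma adjusted p 6.38e-06). It too was called in all 8 such fits, and its substrate comes from the valine pathway that ILV2 feeds. PAN5 was already called in G1 (−0.30, limma adjusted p 0.0037), and was called lower at 10 of the 12 time points. The other 3 pantothenate genes tested, ECM31, PAN6 and FMS1, lay at 0.02, −0.02 and −0.10 and did not pass the test.

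Higher in SSDDCS, apart from the frames beside constructs, were IMD2, YAR073W and BNA4. IMD2 (YHR216W, chromosome VIII, 554396 to 555967, plus strand), an IMP dehydrogenase of guanine nucleotide synthesis, had 1871, 1108, 939 and 1109 in SSDDCS, against 471, 710.3, 495 and 524 in sml1Δ (log2 difference 1.16, SE 0.24, limma adjusted p 0.00289), a 2.23-fold increase. YAR073W, an unplaced frame of the IMD1 locus that nearly copies IMD2, had 1467, 849, 728 and 839 in SSDDCS, against 358, 533, 375 and 391 in sml1Δ (log2 difference 1.19, SE 0.25, limma adjusted p 0.00298). Reads of the copies cannot be separated here, and replicate 1 was the highest SSDDCS library in both. The adjoining YAR075W was called with the block only (log2 difference 0.91, limma adjusted p 0.0187, and 0.000451 with the block). Of the 7 tested genes of guanine nucleotide synthesis IMD2 alone rose, and IMD3, IMD4 and GUA1 lay at 0.22, 0.07 and 0.05. The calls of IMD2 and YAR073W were lost without any one of SSDDCS replicates 1, 2 and 4 and sml1Δ replicates 3 and 4, with adjusted p up to 0.0461 (limma), and both were already called in G1 (1.42 and 1.45).

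BNA4 (YBL098W, chromosome II, 39145 to 40527, plus strand), the kynurenine monooxygenase that leads from tryptophan towards NAD, had 378, 389, 339 and 291 in SSDDCS, against 212, 189, 213 and 190.1 in sml1Δ (log2 difference 0.79, SE 0.16, limma adjusted p 0.00226), a 1.73-fold increase with no overlap. It was also called at each later time point, and not in G1 (0.55, limma adjusted p 0.0893). The 5 min call was lost without any one of SSDDCS replicates 1 and 2 and sml1Δ replicates 2, 3 and 4, with adjusted p up to 0.0488 (limma). The other 5 kynurenine genes tested did not pass, and BNA5 lay at −0.39. The remaining genes that rose only with the block and did not overlap were the ribosomal protein gene RPL18B, the mevalonate pathway kinase gene ERG8, the coat protein gene SFB2, DFP4 and YNL193W. RPL18B had 3966, 3884, 4093 and 4306 in SSDDCS, against 2710.5, 2953, 3340.5 and 3359.8 in sml1Δ (log2 difference 0.40, limma adjusted p 0.0294, and 0.00262 with the block). ERG8 had 1485, 1482, 1568 and 1459 in SSDDCS, against 1281, 1179, 1282 and 1116 in sml1Δ (log2 difference 0.30, limma adjusted p 0.0615, and 0.00552 with the block). DFP4, SFB2 and YNL193W differed by 0.68, 0.29 and 0.34 (limma adjusted p with the block 0.00373, 0.00313 and 0.00762). Among the lower ones, PCL7, a cyclin of the kinase Pho85, had 378, 427, 437 and 371 in SSDDCS, against 589, 583, 569.6 and 536 in sml1Δ (log2 difference −0.50, limma adjusted p 0.142, and 0.00112 with the block).

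**Figure D5:**
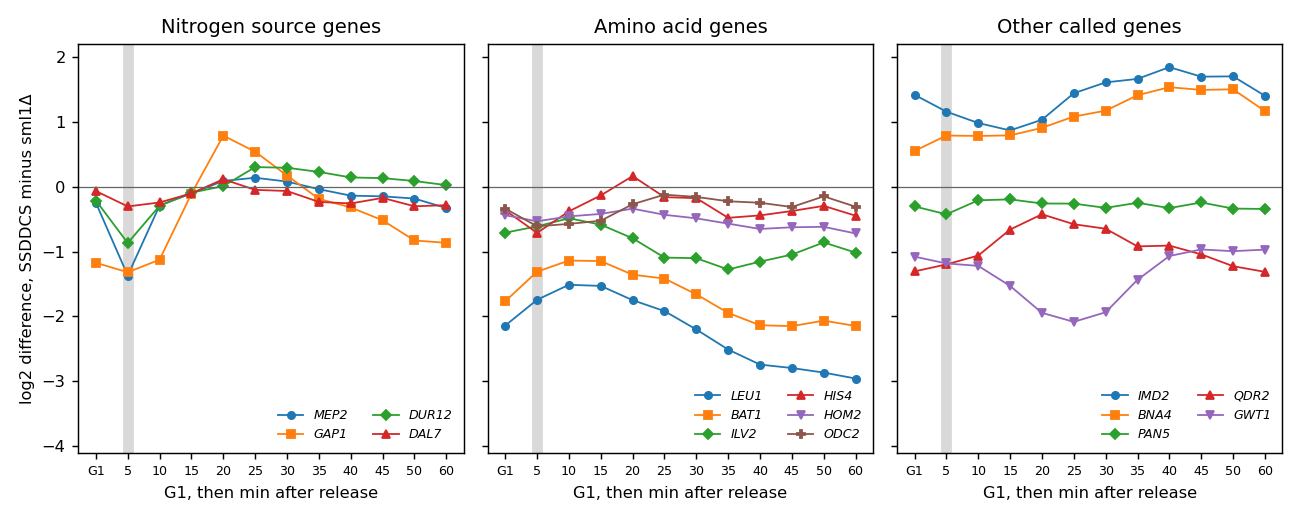
Log2 difference (SSDDCS minus sml1Δ) of called genes and of LEU1 and BAT1 in G1 and from 5 to 60 min after release, with 5 min shaded. MEP2 and DUR12 dip at 5 min only, the leucine genes and QDR2 are lower from G1 onwards, and IMD2 and BNA4 are higher throughout.

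Gene groups of galactose induction, of the cell cycle and of replication stress held few or no calls at 5 min. None of 9 galactose genes differed (median 0.08). GAL1, the galactokinase, had 59636, 65800.5, 51603 and 49994 in SSDDCS, against 59318, 43219, 40946 and 44853 in sml1Δ (log2 difference 0.28, SE 0.11, limma adjusted p 0.405) and overlapped between the strains. Of 24 genes of the G1/S cluster none passed the test, with a median of 0.01 and differences between −0.12 and 0.66. The cyclin gene CLN2 had 6606, 8058, 5249 and 6617 in SSDDCS, against 5975, 6141, 3399.9 and 5791 in sml1Δ (log2 difference 0.34, SE 0.34, limma adjusted p 0.909), and the S phase cyclin gene CLB5 had 1776, 1695, 1354 and 1632 in SSDDCS, against 1969, 1734, 1224 and 1647 in sml1Δ (log2 difference −0.01, SE 0.17, limma adjusted p 0.998). In both, the libraries overlapped and replicate 3 was the lowest of each strain. None of 13 early G1 genes, 14 G2/M genes, 19 origin licensing and firing genes, 28 pheromone response genes and 20 ribosome biogenesis genes passed, with medians of −0.07, −0.03, −0.07, 0.05 and 0.04. Of 8 core histone genes none passed. The G1/S median turned to −0.02 with libraries scaled to equal totals, and with that scaling the ribosome biogenesis median also turned just below 0, as did the G1/S median with quantile normalization.

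Of 12 DNA damage genes none passed without the block and HUG1 alone with it. RNR3, a damage-induced ribonucleotide reductase subunit, had 142, 161, 127 and 171 in SSDDCS, against 159, 133, 127 and 206 in sml1Δ (log2 difference −0.04, SE 0.19, limma adjusted p 0.998). None of 21 early meiotic genes passed, and IME2, a kinase of meiotic entry, had 92.8, 129, 87.2 and 114 in SSDDCS, against 78.6, 99.9, 78.8 and 78.7 in sml1Δ (log2 difference 0.32, SE 0.22, limma adjusted p 0.819). NDT80, the activator of mid-meiotic genes, had 256, 236, 291 and 302 in SSDDCS, against 246, 253, 343 and 260.3 in sml1Δ (log2 difference −0.02, SE 0.10, limma adjusted p 0.998), and THI12, of thiamine synthesis, had 50.5, 96.1, 89.8 and 85.9 in SSDDCS, against 62.4, 78.7, 87.1 and 66.6 in sml1Δ (log2 difference 0.10, SE 0.26, limma adjusted p 0.998). The 20 thiamine genes tested, which include THI12, had no call and a median of 0.03, just below 0 with equal totals. No call was made either among 17 heat shock genes (median 0.11), 17 stress and storage carbohydrate genes (median 0.11), 17 iron genes (median −0.03) and 23 genes of methionine and sulfate assimilation (median 0.20). Of the 23 methionine genes, 17 had a positive and 6 a negative difference, from −0.41 for MET16 to 1.36 for STR3. In 5 of them the strains did not overlap and SSDDCS was higher, against 1.8% of all genes. In the stress group HSP12, a membrane stress protein gene, had 1441, 1648, 931 and 399 in SSDDCS, against 2605, 253, 423 and 205 in sml1Δ (log2 difference 0.98, SE 0.80, limma adjusted p 0.867), with sml1Δ replicate 1 the highest of all 8 libraries.

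All 14 tested phosphate genes had a negative difference and none passed the test, with a median of −0.19 and a range from −0.71 for SPL2 to −0.02 for PHO89. Among 8 pyrimidine genes none passed, and URA1, dihydroorotate dehydrogenase, had 2853, 2483, 4082 and 2308 in SSDDCS, against 1815, 1690.0, 1861 and 1699 in sml1Δ with no overlap (log2 difference 0.70, limma adjusted p 0.128, and 0.0208 with the block). For ISU2, a scaffold of iron-sulfur cluster assembly, the values were 371, 313, 718 and 381 in SSDDCS, against 869, 537, 868 and 909 in sml1Δ (log2 difference −0.88, limma adjusted p 0.325, and 0.0198 with the block), where it had been called in G1 (−1.93, limma adjusted p 4.03e-05). SSDDCS replicate 3 was high in this gene too, and without it ISU2 was called (−1.14, limma adjusted p 5.93e-06).

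The genes called at 5 min were set beside the other time points of the same cultures. Of the 18, 11 were called in the same direction in G1, where 33 genes were called, 7 at 10 min (13 called), 7 at 15 min (174 called), 9 at 20 min (1149 called), 11 at 30 min (1998 called) and 12 at 60 min (333 called). Called at all 12 time points were GWT1 and the 3 frames beside constructs. The difference between the strains changed between 5 and 30 min in 812 of 6404 genes (12.7%), with 501 changing upwards (7.82%) and 311 downwards (4.86%). The split was 620 upwards and 113 downwards with libraries scaled to equal totals, and 416 upwards and 414 downwards with quantile normalization. The number was 1293 with the block, 1617 with a correlation between libraries of one culture, and 534 without SSDDCS replicate 1. These time points share their cultures, and the other differences between them are not described here.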

How the data were processed

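RNA-seq was measured in 94 libraries of 2 strains at 12 time points, and 8 libraries at 5 min carry the comparison. Per the labels, reads were trimmed with cutadapt, aligned with TopHat2 2.0.6 to sacCer3 and scaled with DESeq2, while the study's methods give another aligner and kit version, so the aligner is uncertain. The deposited signal values are the authors' read counts per gene divided by a DESeq2 size factor, and whole reads were recovered for 100% of values (tolerance 0.001 reads). Of 96 columns, 2 matched no sample and were not used.

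Values were tested as log2(value + 1) with limma 3.58.1 in R 4.3.3 (trend), with a mean for each strain and time point over all 94 libraries, in 6414 genes with a mean of at least 10, leaving out 30. A gene was called at a Benjamini-Hochberg adjusted p under 0.01 (two-sided) and differences are SSDDCS minus sml1Δ on that scale. The factors and markers stayed out of the counts, which left 6404 genes. Alternatives were edgeR 4.0.16 and DESeq2 1.42.0 on the recovered reads, other scalings, pseudocounts and filters, a replicate block, a correlation within cultures, the 8 libraries alone and each culture left out. The tests were checked on simulated data, drawn as independent counts with a single dispersion and no differences between cultures. That check therefore does not cover correlated or outlying cultures.

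Same-numbered libraries of the 2 strains deviated together at 5 min (r of 0.196 to 0.588 over 6414 genes, all above 0.1, against −0.682 to 0.262 for other pairs), and over all time points 38 of 47 pairs had r above 0.1, so the numbers were taken to pair the cultures. No label says what a number shares. The pairing was weakest for replicate 2 at 5 min, where SSDDCS replicate 2 had a higher r with sml1Δ replicate 1 (0.242). At 60 min replicates 2 and 4 had r of −0.115 and −0.364. The block nevertheless gives a number the same offset in both strains and at all time points. The main fit treats libraries of one culture at different time points as independent, although their estimated correlation was 0.376. Its p-values thus rest on a spread pooled over all 94 libraries, and not on that between independent cultures alone. With this correlation in the model 26 genes were called at 5 min.

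Members, gene lists and tests were chosen with earlier results of these data known. Named were the factors, markers, all called genes, the largest non-overlapping genes called with the block alone (mean at least 50), called neighbours of construct genes, the first genes of each list and all its called ones, THI12, IME2, NDT80, and genes whose difference departed from G1. The lists of nitrogen, guanine, kynurenine and pantothenate genes, the sequence elements, and CAN1, DAL3, OPT2, ISU2, ARG4, ILV3, HSP12 and URA1 where outside that rule were chosen after values were seen.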

Additional observations from a re-analysis of the deposited data

Results flagged for a closer look

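In 18 of 212 groups of 4 libraries looked at, 1 library stood apart from the other 3 by more than Dixon's 95% critical value for the gap as a share of the group's range, where chance gives about 1 in 20. SSDDCS replicate 3 was that library in 6 of them. In SSDDCS the gap was 0.886 of the range for LEU1, 0.844 for OAC1, 0.832 for ISU2 and 0.843 for MEP2, with SSDDCS replicate 3 the highest in each. It was 0.866 for MFA1 and 0.908 for MFA2, the a-factor pheromone genes, 0.897 for FIT2, a cell wall protein of iron uptake, 0.865 for YNL193W and 0.836 for YAR073W.

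In sml1Δ the gap was 0.909 for HSP12 and 0.853 for PAN5, with replicate 1 the highest in both. It was 0.890 for ISU2, 0.859 for the acid phosphatase gene PHO5, 0.854 for NDT80, 0.848 for NOP56 of ribosome biogenesis, 0.991 for IME2, 0.872 for CLN2 and 0.901 for YNL193W.

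The strain difference at 5 min departed from that in G1, by a limma test of the change, in 6 genes of those described. The change was −1.12 for MEP2, −3.54 for CDC45, −2.87 for SLD2, −1.94 for YDR053W, −1.86 for DBF4 and −1.53 for DPB11.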

How the results depend on the processing

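In 1995 alternatives over 105 named genes no called difference changed sign, while 26 uncalled genes changed sign in 68 alternatives, none with a difference beyond 0.23 in size. Where single cultures were left out, 782 kept their side of the threshold, 48 lost a call and 10 gained one. Of the others, 1092 kept it, 31 lost and 32 gained a call. The 18 calls at 5 min numbered 44 with the replicate block, 4 with the 5 min libraries alone, 5 with those libraries and the block, 32 at an adjusted p under 0.05, and 8 to 47 without single cultures. With the replicate block and a culture left out, which was added after seeing the data, they numbered 50 and 121 without SSDDCS replicates 3 and 4, and 81, 30 and 69 without sml1Δ replicates 1, 2 and 3. DESeq2 gave 25, edgeR 19, equal totals 21, quantile normalization 23 and the culture correlation 26. For the change from G1, 2 genes passed, 6 with the culture correlation, 1 with the G1 and 5 min libraries alone, and 2 to 4 without single cultures. For the change from 5 to 30 min, 812 passed, 1293 with the replicate block, 1617 with the culture correlation and 534 to 777 without single cultures. Of 28 list medians, 2 moved beyond the spread between replicates in 140 alternatives, that of the galactose genes to 0.01 with quantile normalization and that of the G2/M genes to −0.07 with equal totals. Equal totals moved the median of all genes to −0.03. The causes of these changes were not tested, and the smaller fits also hold fewer samples. Genes with few reads, such as HUG1, are limited by depth.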
